A study of Caenorhabditis elegans with 2 samples.

Results

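The genes described here encode the protein side of the pre-mRNA splicing machinery in Caenorhabditis elegans, and the measurement is where the chromatin protein HMG-20 sits at their promoters. The members were the 47 nuclear protein-coding genes, of 19973 in all, whose Ensembl symbol begins with snr-, rsp-, prp-, mog-, uaf-, rnp- or rsr-. They comprise 7 snr, 8 rsp, 13 prp, 6 mog, 2 uaf, 9 rnp and 2 rsr genes. The rule reads names and no measured value, but the gene families were picked with earlier results of these data known, and a shared name does not make every member a splicing factor by function.

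All libraries came from 1 group with 2 biological replicates. The worms were strain RW12240, in which CRISPR insertion placed a TY1, EGFP and 3xFLAG tag at the endogenous hmg-20 gene. Whole young adults with a labelled age of 64 hours were used, from populations synchronised as larvae by bleaching and starvation, and anti-GFP antibody was used for the immunoprecipitation. Whole animals pool all tissues, so a strong region in few cells and a weak one in many cannot be told apart. No untagged or otherwise treated group was analysed here, so no contrast between conditions exists and every statement compares regions or genes within these worms.

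Splicing is carried out by small nuclear ribonucleoproteins (snRNPs), each an snRNA held in a ring of Sm proteins, which assemble on introns with help from further factors and are rearranged by RNA helicases. SR proteins, rich in arginine and serine, bind exons and recruit this machinery. In worms the same Sm ring also sits on the spliced leader RNA, which is joined to the start of many messages. HMG-20 carries the DNA-binding fold called an HMG box, and its mammalian relatives are known as partners of the CoREST repressor complex.

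A gene was called bound when a summit of the conservative peak list fell within a promoter window, which ran from 1000 bp before to 200 bp after any annotated 5' end of the gene. Every region of that list scored 830 or more on a scale that ends at 1000, which corresponds to an irreproducible discovery rate (IDR, the expected share of regions that do not recur between replicates) of 0.01 or less. By this rule 5 of the 47 genes were bound, or 10.6% (95% exact binomial interval 3.55 to 23.1, counting error only), and the background over all protein-coding genes was 3.13%. The bound genes were mog-4, rsr-1, snr-4, prp-19 and prp-40. Each had a region with the top score of 1000, and no other splicing gene had a promoter region scoring above 516. With 1 group and 2 replicates, no test of the list was made.

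Of the 5 bound regions 4 are shown as sequence, without that of rsr-1, because they are what HMG-20 occupied at these genes, together with the strongest region below the threshold, which is shared by rsp-1 and rsp-2. They were read from the RefSeq WBcel235 genome, equal in coordinates to ce11, on the strand of the named gene and 5' to 3'. They lie at chrII:14561765-14561934 (mog-4, minus strand), chrV:11979969-11980224 (snr-4, minus), chrIII:5172546-5172801 (prp-19, minus), chrIII:9521786-9522041 (prp-40, plus) and chrII:11453087-11453342 (rsp-1, plus). Capitals mark every GCGC.
mog-4: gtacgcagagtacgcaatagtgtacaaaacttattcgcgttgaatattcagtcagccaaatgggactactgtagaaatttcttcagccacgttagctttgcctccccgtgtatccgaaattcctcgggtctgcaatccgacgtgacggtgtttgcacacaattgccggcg
snr-4: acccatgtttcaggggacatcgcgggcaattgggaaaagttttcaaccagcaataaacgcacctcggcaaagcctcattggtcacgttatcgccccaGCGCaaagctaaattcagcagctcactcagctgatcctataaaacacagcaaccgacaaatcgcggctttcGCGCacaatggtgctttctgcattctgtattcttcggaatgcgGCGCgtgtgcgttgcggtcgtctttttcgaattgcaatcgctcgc
prp-19: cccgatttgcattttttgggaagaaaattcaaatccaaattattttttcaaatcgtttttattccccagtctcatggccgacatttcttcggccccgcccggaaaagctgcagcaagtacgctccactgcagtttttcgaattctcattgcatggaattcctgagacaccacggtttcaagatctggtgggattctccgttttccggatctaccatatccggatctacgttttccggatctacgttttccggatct
prp-40: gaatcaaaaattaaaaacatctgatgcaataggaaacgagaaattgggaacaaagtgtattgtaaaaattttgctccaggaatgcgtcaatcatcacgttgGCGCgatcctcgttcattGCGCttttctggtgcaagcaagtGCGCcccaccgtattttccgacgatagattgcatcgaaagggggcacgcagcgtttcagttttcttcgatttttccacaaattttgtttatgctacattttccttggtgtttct
rsp-1: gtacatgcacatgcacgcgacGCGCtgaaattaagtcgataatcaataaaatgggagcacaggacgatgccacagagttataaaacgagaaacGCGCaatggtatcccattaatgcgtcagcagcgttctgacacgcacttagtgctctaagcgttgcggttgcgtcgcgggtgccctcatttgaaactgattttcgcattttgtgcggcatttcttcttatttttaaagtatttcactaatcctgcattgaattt

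The letters GCGC, which read the same on both strands, occurred 3 times each in the snr-4 and prp-40 regions, 2 times in the rsp-1 region and not at all in those of mog-4 and prp-19. In the 101 bp centred on the summit, 3 of the 5 bound regions held GCGC, at rsr-1, snr-4 and prp-40. The share among all 979 nuclear regions of the conservative list was 43.2%, and among the 58117 other ranked nuclear regions it was 14.5%. The repeat GAGAGA (either strand), which 15.8% of the conservative regions held, was in 0 of the 5. Base composition was narrow across the bound regions, with a G and C content of 48.5 to 52.5% in the same windows. The median was 49.5% over the conservative list and 41.6% over the other ranked regions. Among the 32 other regions that were the strongest at a splicing gene, G and C content ran from 22.8 to 56.4% with a median of 46.5%, and 11 held GCGC. Both motifs were chosen after the summit sequences were seen. These matches describe letters in a window and are not shown to be sites of HMG-20.

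The strongest signal was at mog-4 (WBGene00003392), which encodes a DEAH-box RNA helicase related to yeast Prp2 and is known for the switch of the hermaphrodite germ line from sperm to oocytes. The peak height, in the authors' units of unstated scale, was 149.3 in replicate 1 and 96.0 in replicate 2, or 122.6 ± 37.7 (SD, n = 2), and 242.6 in the pooled data. Each replicate's signal here was higher than at the strongest region of any other splicing gene in the same replicate. The summit lay 241 bp upstream of mog-4, between genes, and mog-4 was the only gene with a 5' end near enough to claim it. Among the 979 nuclear regions of the conservative list this one ranked 26 by pooled signal. The region measures 170 bp, shorter than the 256 bp of the other 4.

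The other bound gene whose own 5' end was the nearest was prp-40 (WBGene00014218), known from yeast as a component of the snRNP that recognises the start of an intron. Its signal was 49.6 in replicate 1 and 31.9 in replicate 2, or 40.8 ± 12.5 (SD, n = 2), with a pooled signal of 87.9 and rank 342. The summit lay 161 bp upstream of prp-40 and 454 bp upstream of clu-1, which is transcribed the other way. The prp-40 region was the weakest of the 5 and the only one missing from a replicate's own thresholded list. It scored 1000 in the list of replicate 1 and 187 in that of replicate 2.

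At snr-4 (WBGene00004917), which encodes the Sm ring protein SmD2, the summit lay 374 bp upstream of the gene and 21 bp upstream of an snRNA gene, T11F9.15, that points away from it. The coding gene of an snRNP protein and a gene for an snRNA thus faced away from each other across a single conservative HMG-20 region. The summit also fell inside the annotated ncRNA C52E4.14, 138 bp from its 5' end. The signal was 54.4 in replicate 1 and 71.0 in replicate 2, or 62.7 ± 11.7 (SD, n = 2), and 120.8 pooled (rank 141). Among snRNA genes 32 of 129 had a conservative summit in the same window, or 24.8% (95% exact interval 17.6 to 33.2). Which of the neighbours the region belongs to was not tested.

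The prp-19 gene (WBGene00020423) encodes the ubiquitin ligase that gives the Prp19 complex of the spliceosome its name. Its region had a signal of 54.9 in replicate 1 and 61.2 in replicate 2, or 58.0 ± 4.48 (SD, n = 2), the closest pair among the 5, and 115.6 pooled (rank 164). The summit lay 629 bp upstream of prp-19, the farthest of the 5, but 46 bp upstream of the protein-coding gene K10D2.5, which is transcribed the other way. The gene emb-1 lay 765 bp away and also holds the summit in its window.

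The last bound gene was rsr-1 (WBGene00004706; chromosome I, minus strand), which encodes an SR-related protein of the SRm160 type. Its region (chromosome I, 11182438 to 11182693) had a signal of 108.7 in replicate 1 and 48.2 in replicate 2, or 78.4 ± 42.8 (SD, n = 2), and 153.6 pooled (rank 86). The replicates differed 2.26 times, the widest gap among the 5. The summit lay 503 bp upstream of rsr-1 and 229 bp upstream of sri-5, a chemoreceptor gene on the other side. So 2 of the 5, mog-4 and prp-40, were the gene with the nearest 5' end, or 4.26% of the 47, where the same rule called 1.71% of all protein-coding genes. Of the 5 bound splicing genes 40% had the nearest 5' end, and of the 625 bound protein-coding genes 54.6%.

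**Figure D1:**
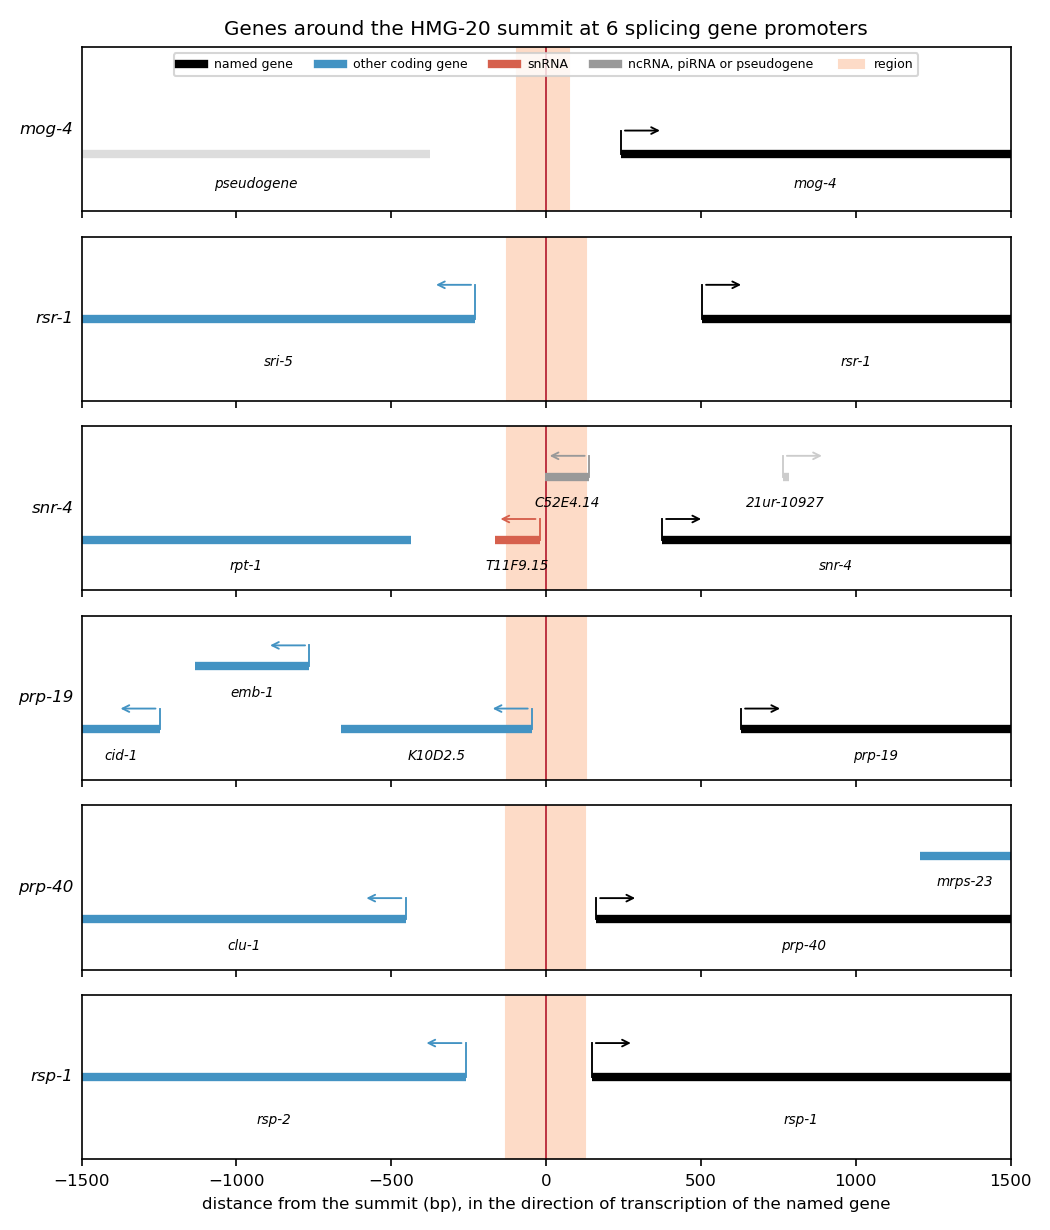
Genes around the summit of the 5 bound regions and of the region shared by rsp-1 and rsp-2, with distance from the summit in bp on the horizontal axis and the named gene pointing right. Shading is the region and bent arrows are 5' ends; at snr-4, prp-19 and rsr-1 another gene's 5' end stands nearer to the summit, while at mog-4 the next gene on the left is a pseudogene whose 5' end is not near.

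Each replicate also has a thresholded list of its own, called without the other replicate. In that of replicate 1 the same 5 genes were bound, against a background of 1.75% of protein-coding genes. In that of replicate 2 there were 4, all but prp-40, against 1.56%. The 4 genes mog-4, rsr-1, snr-4 and prp-19 were bound in both, or 8.51% of the 47, where 1.05% of all protein-coding genes were.

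Inside the promoter windows, no splicing gene came close to the threshold from below. The nearest by score was mog-3 (WBGene00003391), with 516, a signal of 20.3 in replicate 1 and 36.2 in replicate 2 (28.2 ± 11.3, SD, n = 2), and a summit 138 bp upstream of its own 5' end. In the list of replicate 2 alone this region scored 803, and in that of replicate 1 it scored 113. Next were rsp-1 (WBGene00004698) and rsp-2, neighbours transcribed in opposite directions that encode SR proteins. They share 1 region, 147 bp upstream of rsp-1 and 260 bp upstream of rsp-2, whose score was 418. Its signal was 47.0 in replicate 1 and 17.8 in replicate 2 (32.4 ± 20.6, SD, n = 2), and its score was 803 in the list of replicate 1 alone and 30 in that of replicate 2. The pooled signal of 72.8 was higher than that of 426 of the 979 regions in the conservative list. The replicates of this region were 2.63 times apart, beside 2.26 times at the bound region of rsr-1. The next gene by score was snr-2, with 379. This order depends on the window edge, which lay 200 bp past a 5' end. In the gene body of rsp-7 a region scoring 730 had its summit 265 bp from the nearest 5' end, its own. It was therefore left out of the promoter count.

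The ranked list, which also holds regions far below the threshold, had at least 1 region in the window of 38 of the 47 genes (80.9%), against 54.6% of all protein-coding genes. Their strongest regions were 37 different ones. The 33 genes that were not bound had pooled signals of 14.9 to 72.8 at their strongest region, with a median of 26.2. For 13 of the 33 no region in the window scored above 27, the lowest score in the list. Over all 38 genes the median was 28.4, close to 26.97 over the 10906 protein-coding genes with a region, and the lower quartile of 19.2 was below the 20.7 of all. The upper quartile was 42.6 against 35.6. The splicing genes thus held a few strong promoters beside a majority with signals in the usual range of protein-coding genes. The bound genes stood above 97.6 to 99.9% of all those protein-coding genes.

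**Figure D2:**
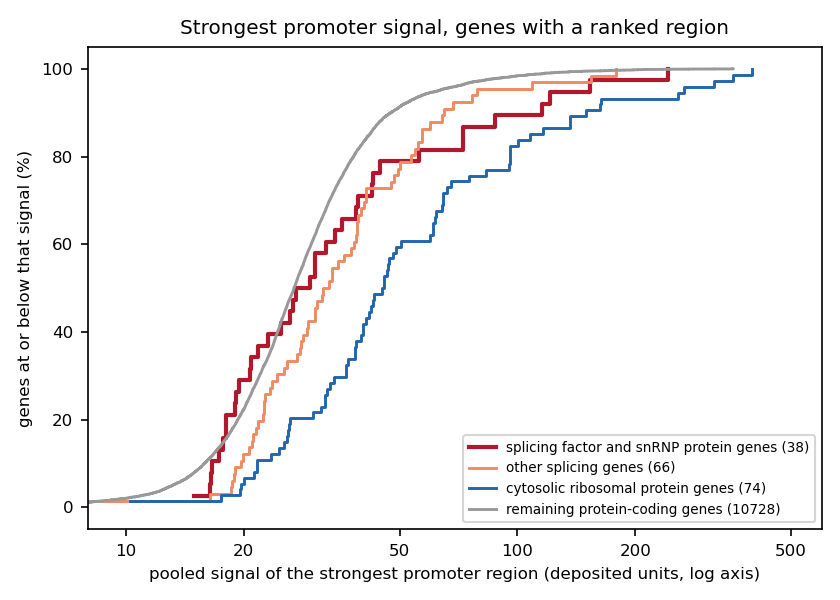
Cumulative share of genes (vertical axis, %) by the pooled signal of their strongest promoter region (horizontal axis, deposited units, log scale), for genes with a ranked region and with the number of genes in brackets. The curve of the splicing factor and snRNP protein genes runs close to that of the remaining protein-coding genes up to about the median of 28.4. Higher up it lies to the right, with an upper quartile of 42.6 against 35.6 for all protein-coding genes. The curve of the ribosomal protein genes lies to the right throughout the middle.

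Among the Sm protein genes, which build the ring shared by the snRNPs, snr-4 alone was bound, or 14.3%. The 95% exact interval, 0.361 to 57.9%, includes the background of 3.13%, so this count does not set the family apart. The gene of SmB, snr-2, had a signal of 20.8 in replicate 1 and 21.2 in replicate 2 at a region 434 bp upstream, which lay 32 bp from the 5' end of the coding gene W08E3.4. At snr-3 (SmD1) the replicate signals were 8.36 and 28.2, the largest ratio between replicates among all 37 strongest regions. That summit lay in an exon of its neighbour rsp-5, which is transcribed the other way. The genes of SmF, SmE and SmG (snr-5, snr-6 and snr-7) had pooled signals of 23.01, 16.6 and 17.3, and each scored 27. No ranked region lay in the window of snr-1, which encodes SmD3. The pooled signals of snr-2 and snr-3 were 42.7 and 34.1, beside a median of 26.97 over all protein-coding genes with a region. The 7 genes of the ring thus ranged from no ranked region to the strong one of snr-4.

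None of the 9 rnp genes was bound. The 95% exact interval, 0 to 33.6%, includes the background of 3.13%, so this count does not set the family apart. The rnp genes encode proteins with RNA-recognition motifs, among them snRNP-specific proteins. The highest was rnp-3, a relative of a protein of the U2 snRNP, with replicate signals of 24.5 and 17.5 and 44.5 pooled. Its summit lay 188 bp downstream of its 5' end. In rnp-1 the replicate signals were 19.8 and 21.1, with 42.4 pooled. That region was nearer to dpy-30, which encodes a subunit of histone methyltransferase complexes. At rnp-9 and rnp-8 the pooled signals were 35.7 and 29.6. The gene of the snRNP protein U1-70K, rnp-7, had a pooled signal of 21.8. The lowest strongest region of any splicing gene was that of rnp-2, with a pooled signal of 14.9 and replicate signals of 7.92 and 7.56 at a summit 971 bp upstream. No ranked region lay in the promoter windows of rnp-4, which encodes the exon junction protein Y14, rnp-5 or rnp-6.

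None of the 8 rsp genes, which encode the SR proteins, was bound. The 95% exact interval, 0 to 36.9%, includes the background of 3.13%, so this count does not set the family apart. After rsp-1 and rsp-2, the highest pooled signal was 39.1 at rsp-8, with 24.4 in replicate 1 and 16.8 in replicate 2 at a summit 560 bp upstream. The genes rsp-4, rsp-5, rsp-6 and rsp-7 had 30.4, 24.9, 27.2 and 19.1. The gene of the worm SRSF1 counterpart, rsp-3, had no ranked region in its window. The SR-related gene rsr-2 had replicate signals of 8.33 and 15.9 at its strongest region, far below its namesake rsr-1. The genes of the heterodimer that reads the end of the intron were not bound either. For uaf-2, its small subunit, the replicate signals were 26.1 and 12.7 at a summit 13 bp upstream of the 5' end. For uaf-1, the large subunit, they were 11.0 and 7.20 at a summit in an intron of the gene. That summit lay 377 bp upstream of the nearest 5' end of uaf-1 and 11237 bp from the annotated gene start.

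The 13 prp genes, named after pre-mRNA processing mutants of yeast, held 2 of the bound genes, or 15.4%. The 95% exact interval, 1.92 to 45.4%, includes the background of 3.13%, so this count does not set the family apart. Besides prp-19 and prp-40, the highest pooled signals were 32.5 at prp-31 and 30.5 at prp-8, which encodes the large protein at the heart of the spliceosome. The others with a region, prp-38, prp-39, prp-21, prp-4 and prp-18, had 26.8, 26.2, 20.9, 17.7 and 16.5. At prp-18 the replicate signals were 7.68 and 7.20, among the lowest of all. No ranked region lay in the windows of prp-3, prp-6, prp-9 or prp-17. Of the 6 mog genes, named for masculinisation of the germ line, mog-4 and mog-3 stood apart, and mog-7, mog-1, mog-2 and mog-5 had 20.8, 18.9, 18.03 and 16.4. The replicate signals at mog-5 were 11.8 and 8.33. The genes mog-1, mog-4 and mog-5 encode helicases of the same DEAH-box type, and mog-4 alone among them was bound. For the mog family the bound share was 16.7% (95% exact interval 0.421 to 64.1). That interval also includes the background, so the mog count does not set the family apart either.

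**Figure D3:**
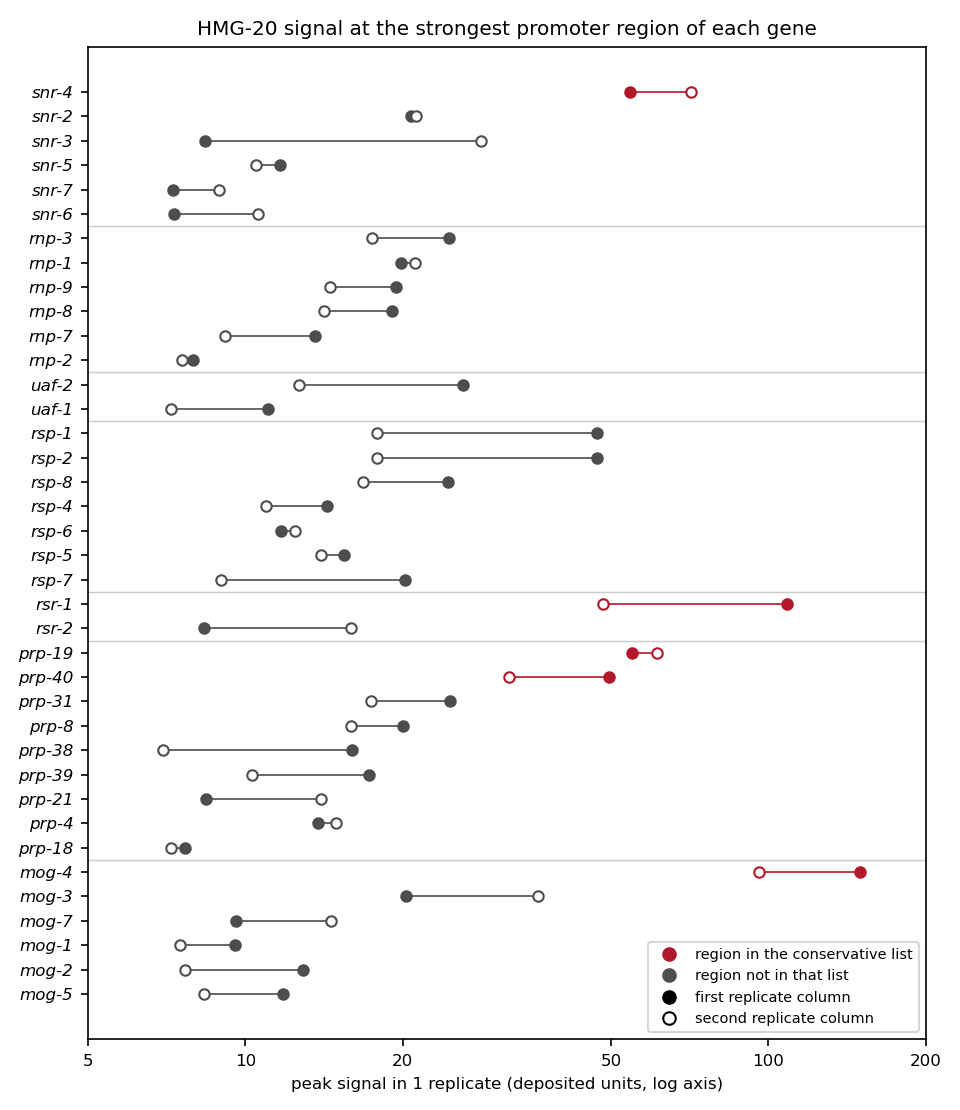
Signal of each replicate (log axis, deposited units) at the strongest promoter region of the 38 splicing genes that have one, grouped by gene family, with filled points for the first and open points for the second replicate column. The 5 genes with a conservative region (red) have both replicates at 31.9 or above, and of the others only rsp-1, rsp-2 and mog-3 reach that level, each in 1 replicate.

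Replicates differed by a median of 1.42 times over the 37 strongest regions, and by more than 2 times at 6 of them. Over the 979 conservative regions the median was 1.27 times, and 52 were more than 2 times apart. That list was selected by agreement between these same 2 replicates, so the 2 spreads are not on equal terms. Spearman's rho between replicates was 0.686 over the 37 regions, 0.432 over the conservative list and 0.233 over all 59096 ranked nuclear regions. Regions share the same 2 libraries, so these are descriptions without a p-value. The first replicate was higher at 24 of the 37 (64.9%), beside 62.4% of the conservative regions and 53.0% of all ranked nuclear regions.

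Of the 38 strongest summits 32 were upstream of the gene's nearest 5' end and 6 downstream. That is 84.2%, beside 79.9% for all protein-coding genes with a region and 83.3% of the window's length lying upstream. All 5 bound summits were upstream, at 161 to 629 bp, as were 92% of those of all bound protein-coding genes. The median distance was 374 bp for the bound genes and 446 bp for the other 33, whose distances ran from 13 to 971 bp. Of these 33, 18 had the nearest 5' end to their strongest summit.

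**Figure D4:**
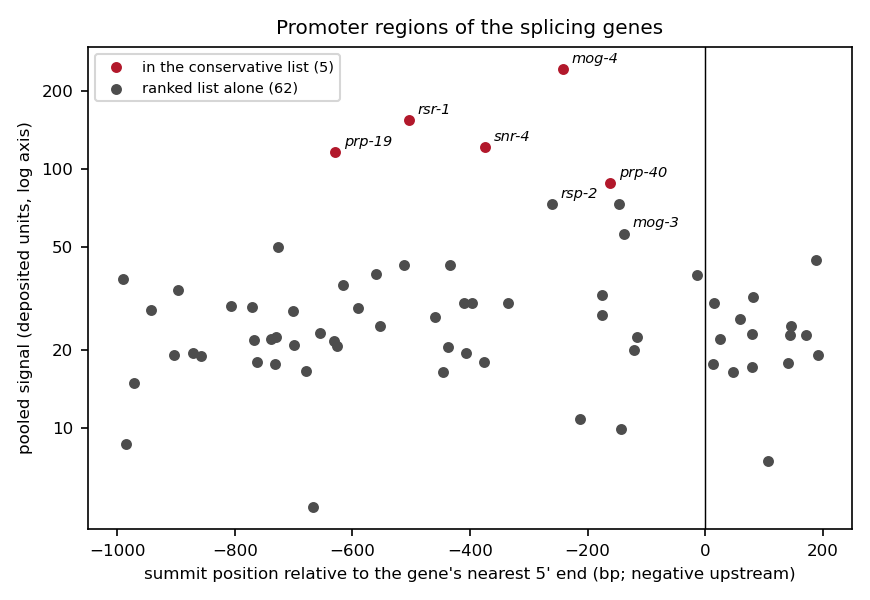
Pooled signal (log axis, deposited units) of all 67 pairs of a splicing gene and a ranked region in its window, against the summit's position relative to the gene's nearest 5' end (bp, negative upstream). The 5 conservative regions (red) lie 161 to 629 bp upstream with signals of 87.9 to 242.6, and no point downstream of a 5' end exceeds 44.5.

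Other genes of splicing, Lsm rings and snRNP assembly, from a list of 99 names also drawn up with earlier results known, of which 88 matched a protein-coding gene, were bound at 10 of 88, or 11.4% (95% exact interval 5.59 to 19.9), beside the background of 3.13%. The interval lies wholly inside that of the 47 genes, but a longer list gives a narrower interval, and the 2 shares were not compared by a test. Among them was smu-1, a modulator of alternative splicing, with 79.7 in replicate 1, 67.7 in replicate 2 and 154.5 pooled. The gene plrg-1 encodes a partner of PRP-19 in the Prp19 complex and had 42.9 and 60.2 in the replicates and 108.9 pooled. It lies directly upstream of prp-38 on the same strand, and the strongest region of prp-38 falls in an exon of plrg-1. The genes hrpk-1, hrpr-1 and hrpu-1 for hnRNP proteins had pooled signals of 60.0, 57.2 and 76.8. At acin-1, rbm-39, usp-39 and swp-1 the pooled signals were 78.9, 68.4, 64.8 and 64.3. The gene's own 5' end was the nearest at 2 of the 5 bound members and at 9 of these 10 genes. The exception among the 10 was swp-1, whose summit was nearest to rpl-23.

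Beside the 5 of 47 splicing genes, cytosolic ribosomal protein genes were bound at 26 of 81, or 32.1% (95% exact interval 22.2 to 43.4). The median of the strongest signals was 28.4 for the splicing genes and 45.4 for the ribosomal protein genes. The intervals of the bound share, 3.55 to 23.1% for the splicing genes and 22.2 to 43.4% for ribosomal protein genes, overlap slightly. The difference was not tested.

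A conservative summit fell within the gene body of 0 of the 47 splicing genes and of 1.62% of all protein-coding genes. Regions scoring at least 540 (an IDR of 0.05) but outside the conservative list lay in the bodies of 4 genes (8.51%), against 2.19% of all protein-coding genes. They were rsp-7, snr-2, snr-3 and rsp-8, with scores of 730, 675, 573 and 549, and all 4 summits fell in coding exons. The rsp-7 summit lay 267 bp from the gene start. Those of snr-2, snr-3 and rsp-8 lay 258, 268 and 302 bp from the gene end. Of all 437 protein-coding genes with such a region, 22.4% had a summit within 400 bp of the gene end. At snr-2 the nearest 5' end was that of ola-1, 361 bp away. The signals in replicates 1 and 2 were 27.1 and 25.8 at rsp-7, 25.9 and 25.2 at snr-2, and 21.8 and 29.3 at snr-3. At rsp-8 the replicates differed more, with 20.4 and 48.0. Body length differs between genes and was not taken into account.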

How the data were processed

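Caenorhabditis elegans whole-animal chromatin immunoprecipitation of tagged HMG-20 was sequenced in 2 biological replicates. Sources used here name neither the aligner nor the peak caller. Positions are on ce11, per the labels. Peak lists carry no totals of reads, so depth is unknown. A control library that the labels mention was not analysed here. The peak signal is the height deposited by the authors, whose scale is not stated, and pooled values carry no error. The deposited score is the scaled IDR, and the deposited −log10 column holds the global IDR. Of 59096 nuclear ranked regions, the first column of replicate signals was identical, with its interval, to records of replicate 1's own list at 34766 and of replicate 2's at 0. The second was identical to replicate 2's at 34098 and to replicate 1's at 0.

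Summits were assigned with Ensembl release 115 on WBcel235. The 20 mitochondrial regions of the 999 in the conservative list were left out. Each gene took its strongest region by pooled signal. The window step was tested on simulated data. The members and lists were chosen with earlier results of these data known. Every member is accounted for, and those given in full have a conservative region, a score of 540 or more, a place among the 3 nearest the threshold on each side, one of the 3 highest or lowest signals among the rest, or no region. One bound gene among the other splicing genes is counted but not reported here. Alternatives were other windows, lists, thresholds and gene assignments. Python 3.11.15, NumPy 2.4.6, pandas 2.3.3, SciPy 1.17.1 and matplotlib 3.10.9 were used.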

Additional observations from a re-analysis of the deposited data

How the results depend on the processing

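The count of 5 bound splicing genes kept within 1.5 times under 10 of 13 alternatives. It came to 3 when the window reached 500 bp to either side (mog-4, snr-4 and prp-40), 3 with the nearest protein-coding gene alone (the same genes) and 2 with the nearest gene of any class. It was 4 without replicate 1 (prp-40 lost), 5 without replicate 2, 4 at a global IDR of 0.001 (prp-40 lost) and 4 with summits in windows of tRNA, snoRNA and snRNA genes left out (snr-4 lost). mog-4 was bound under all 13. The share of all protein-coding genes bound was 2.59% with 500 bp to either side, 4.28% with 2000 bp upstream, 4.78% at a score of 540 or more, 1.46% at a global IDR of 0.001, 2.599% without small RNA windows, 1.71% and 2.33% with the nearest gene of any class and the nearest coding gene, and 1.56% to 1.75% without 1 replicate. The share among the splicing genes was 2.22 to 6.09 times that of all genes over the 13, against 3.40, and the highest ratio was without replicate 2. The median strongest signal of 28.4 was 30.4 with 500 bp to either side, 38.7 with 2000 bp upstream, 30.4 from annotated gene starts alone (30.38), 31.1 with any overlap and 26.5 with the region of highest score. Depth is unknown, so a gene without a region is below detection in these lists, not shown to be unbound.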
